A study of Mus musculus with 12 samples.

Results

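The genes described here carry out or sense retinoid signalling, the set of reactions by which cells make, bind, remove and respond to retinoic acid. They are 9 genes, Stra6, Dhrs3, Aldh1a1, Aldh1a2, Aldh1a3, Crabp1, Crabp2, Rarb and Rarg, of 17016 genes on the array, chosen by the RefSeq transcript that the array files give for their 11 probes. Of these, 8 passed a filter that asks for a probe well above background in every array of some group of 3, as did 12435 genes in all, and Aldh1a2 did not. They were chosen with their levels in these arrays known, so their own values and differences are given as a description, with standard errors (SE) and without a test.

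Messenger RNA of mouse embryonic fibroblasts was measured on 12 one-colour expression arrays. KO cells are a fibroblast line that lacks the tyrosine kinase FAK, which acts at integrin adhesion sites and is encoded by Ptk2, and rescue cells are a single clone, DA2, in which FAK was put back into such cells. Each line was plated at 8200000 (dense) or 410000 (sparse) cells per 10 cm dish and harvested after 24 h, on 3 experimental days, which gave 3 arrays in each of the groups KO dense, KO sparse, rescue dense and rescue sparse. The replicate cultures were grown on separate days. All 4 groups grew in serum-containing medium with no named retinoid added, and the medium of rescue cells alone held hygromycin B and non-essential amino acids, so that the line, its clone, the presence of FAK and the medium change together. Both densities of a line and day lay on 1 slide, and both lines lay on 1 slide only on day 2. On days 1 and 3 the line and its slide cannot be told apart.

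Levels are log2 intensities relative to the 75th percentile of the same array, which lay between 294 and 1594 intensity units, with 23150 to 26183 of 41174 probes well above background per array. The level of 1 probe cannot be set against that of another. In the deposited table of processed values, the 4 columns of day 3 matched the scanner file of the other line at the same density (rank correlation 0.991 to 0.995 across probes) better than that of the line they are labelled with (0.827 to 0.865), while the other 8 columns matched their own (0.991 to 0.998). All values below come from the scanner files as labelled. There the day 3 arrays of each line lie near the other days' arrays of that line for Aldh1a1, Rarb and Rarg. As these members were chosen with their levels known, this is no independent check of the labels. Of the 2 probes for Ptk2, one was near the same level in all groups (0.29 ± 0.24 in KO dense, 0.20 ± 0.15 in KO sparse, 0.36 ± 0.03 in rescue dense and 0.31 ± 0.21 in rescue sparse arrays), and the other averaged -1.61 ± 0.27, -1.37 ± 0.34, -0.68 ± 0.44 and 0.71 ± 0.50 in the same order (SD, n = 3 each). Their positions in Ptk2 and the extent of the deletion were not at hand, so neither probe checks the labels. Of 10 fibroblast markers, 9 were well above background on every array of all groups, and Thy1 was so on no array of KO sparse, rescue dense or rescue sparse cells.

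Retinol enters cells through carriers such as STRA6, is oxidised reversibly to retinaldehyde and then irreversibly to retinoic acid by the ALDH1A enzymes. Cytosolic CRABP proteins bind retinoic acid, CYP26 enzymes degrade it, and the nuclear receptors RARA, RARB and RARG bind it as partners of the RXR receptors at paired DNA half-sites. Several genes of the pathway, Rarb among them, are themselves induced by retinoic acid, and fibroblasts of the embryo are known to respond to it.

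A well known element of this kind lies in a Rarb promoter, and it is shown here because Rarb was a member that set the lines apart on every day. The window from 250 bases before to 50 bases after the annotated Rarb start (RefSeq, GRCm38.p6, chr14:16575427-16575726, minus strand) reads as follows, 5′ to 3′, with the paired half-sites in capitals.

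Rarb promoter: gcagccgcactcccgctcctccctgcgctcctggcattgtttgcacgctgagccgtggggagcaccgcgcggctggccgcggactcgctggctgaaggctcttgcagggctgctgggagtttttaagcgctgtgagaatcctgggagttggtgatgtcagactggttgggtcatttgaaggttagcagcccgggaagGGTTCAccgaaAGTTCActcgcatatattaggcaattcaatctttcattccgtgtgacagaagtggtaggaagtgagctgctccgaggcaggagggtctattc

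The half-sites searched for were AGGTCA or its common variant GGGTCA, and also AGTTCA or its variant GGTTCA, placed as direct repeats with 1, 2 or 5 bases between them, on both strands. The match in the Rarb window, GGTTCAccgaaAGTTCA, has 5 bases between its half-sites and spans bases -53 to -37 from the start (chr14:16575513-16575529). A repeat with this spacing occurred in 32 of 32851 annotated windows of the same length (0.0974%), and a repeat of any of the 3 spacings in 193 (0.588%). RefSeq windows were at hand for 7 members, 14 windows in all, and the other 13 held no such repeat. Windows for Crabp2 and Aldh1a3 were not analysed here.

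Rarb encodes the retinoic acid receptor beta, and the gene is itself a classical target of retinoic acid. It was not well above background on any of the 6 KO arrays, with -6.77, -7.38 and -6.96 on days 1, 2 and 3 in KO dense cells and -7.04, -6.96 and -6.85 in KO sparse cells, against 0.67, -0.05 and 0.30 in rescue dense cells and -1.71, -1.23 and -2.50 in rescue sparse cells. All 6 KO arrays lay below all 6 rescue arrays. KO levels are only bounded by the background. A working bound compares the rescue mean with the dimmest probe well above background on each KO array (or the Rarb probe where brighter). It is not strict, since a probe can lie above this floor and still not be well above background. On the KO dense array of day 3, Rbp7 at -5.15 was not well above background, while Cyp26a1 at -5.59 was. All folds given here as at least use such a bound. By it Rarb was at least 73.2-fold lower in KO dense than in rescue dense cells. In KO sparse it was at least 11.5-fold lower than in rescue sparse cells. Within the shared slide of day 2 the signals as measured differed by -7.33 and -5.73. In bulk RNA, fewer cells with a transcript and less of it per cell cannot be told apart. The probe is printed 10 times on each array, and its copies were averaged.

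Within the rescue line Rarb was 2.12 ± 0.30 (SE) higher in dense than in sparse cells, which is 4.34-fold. The difference was 2.38, 1.18 and 2.80 on the 3 days, each between arrays of 1 slide, and the 3 dense arrays lay above all 3 sparse arrays. Both densities of KO cells were below background, so no density difference can be given for them.

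Rarg encodes the retinoic acid receptor prominent in embryonic mesenchyme and skin. Its levels were -1.98, -1.73 and -1.47 in KO dense cells and -2.59, -1.90 and -1.94 in KO sparse cells, against 0.97, 0.42 and 1.15 in rescue dense cells and 0.32, 0.91 and 0.67 in rescue sparse cells. All 6 KO arrays lay below all 6 rescue arrays, by more than the spread of any group. The KO minus rescue difference was -2.57 ± 0.26 in dense and -2.78 ± 0.26 in sparse cells (5.95-fold and 6.87-fold lower), and -2.15 and -2.81 within the slide that held both lines. A second Rarg probe gave -2.39 and -2.49. Unlike the difference between lines, the difference between densities stayed within the spread of the arrays, at 0.42 ± 0.26 in KO and 0.21 ± 0.26 in rescue cells, with overlapping groups in both lines, and the second probe gave -0.06 and -0.17.

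Aldh1a1 encodes a retinaldehyde dehydrogenase, one of the enzymes of the last step of retinoic acid synthesis, and its line difference ran opposite to that of the receptors. Its levels were 4.77, 4.85 and 5.15 in KO dense cells and 4.64, 4.69 and 4.58 in KO sparse cells, against -2.76, -1.91 and -2.43 in rescue dense cells and -3.24, -4.15 and -3.98 in rescue sparse cells. The probe was well above background on all 12 arrays, so that these differences need no bound. KO cells were higher by 7.29 ± 0.27 at dense seeding (156-fold) and by 8.43 ± 0.27 at sparse seeding (344-fold). Within the shared slide of day 2 the differences were 6.75 and 8.84. The groups stood in the order KO dense, KO sparse, rescue dense and rescue sparse, with no overlap between neighbours. The first pair differed by about 1 SE (0.29 ± 0.27) and the last by 1.42 ± 0.27.

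The density differences of Aldh1a1 were smaller than those between the lines. Rescue dense cells were 1.42 ± 0.27 above rescue sparse cells, by 0.47, 2.24 and 1.55 on the 3 days, with no overlap of the groups. KO dense cells were 0.29 ± 0.27 above KO sparse cells, by 0.13, 0.15 and 0.57, also with no overlap. The KO response minus the rescue response was -1.14 ± 0.38. Its sign depended on the scaling, since centring the arrays on the spike-in probes shifted this difference by 2.37.

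The other enzymes of this step, Aldh1a2 and Aldh1a3, lay at or near background. Aldh1a2 was well above background on 1 KO dense array (-4.96) and 1 rescue dense array (-4.13) and on no sparse array, and no comparison was made. Aldh1a3 was well above background on no KO array, on all 3 rescue sparse arrays (-5.31, -5.83 and -5.41) and on 2 of 3 rescue dense arrays (-6.92, -5.82 and -5.92). Its rescue signals did not exceed the dimmest well-measured probes of the KO arrays, so no fold is given, and the difference of -1.56 ± 0.45 between KO sparse and rescue sparse cells turned to 0.46 with another background correction. Neither gene can therefore be compared between the lines beyond its detection.

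**Figure D1:**
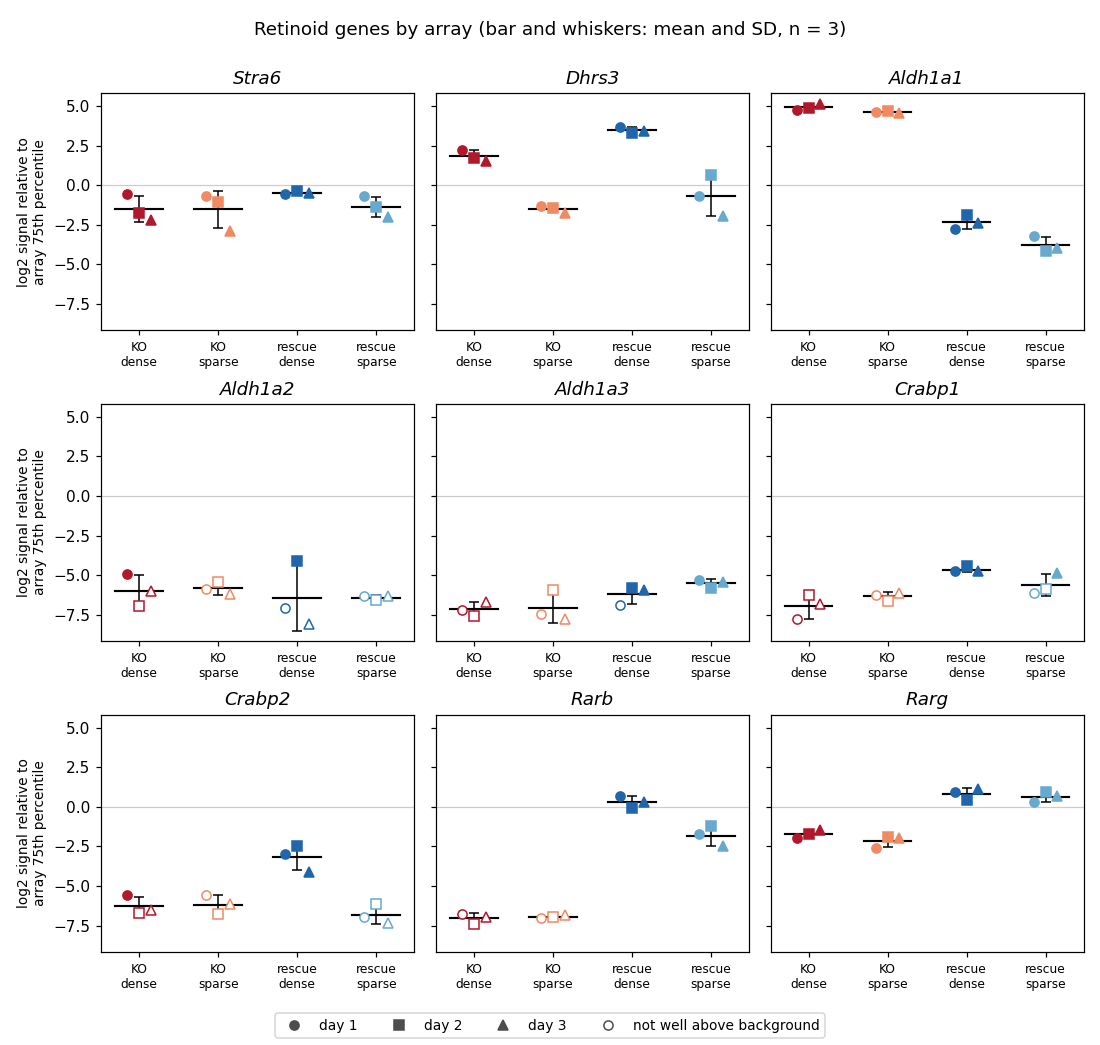
Log2 signal relative to the array's 75th percentile (vertical axis) for the 9 genes in KO dense, KO sparse, rescue dense and rescue sparse cells (horizontal axis), with 1 symbol per array, shaped by day and open where the probe was not well above background. Black bars and whiskers are the mean and SD (n = 3), Aldh1a1 lies near 5 on the 6 KO arrays and at -1.91 or lower on the 6 rescue arrays, and Rarb and Rarg run the other way.

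Dhrs3 encodes a retinaldehyde reductase that returns retinaldehyde to retinol, and it was the member that followed density most closely in both lines. Its levels were 2.24, 1.74 and 1.53 in KO dense cells and -1.34, -1.42 and -1.74 in KO sparse cells, against 3.69, 3.27 and 3.42 in rescue dense cells and -0.68, 0.62 and -1.95 in rescue sparse cells. Every dense array lay above every sparse array, whichever the line. Dense minus sparse was 3.34 ± 0.48 in KO cells (10.1-fold) and 4.13 ± 0.48 in rescue cells (17.5-fold). By day and within a slide it was 3.58, 3.17 and 3.28 in KO cells and 4.37, 2.65 and 5.37 in rescue cells. The rescue sparse arrays varied most, with an SD of 1.29, and the difference between the 2 density responses, -0.79 ± 0.68, was about the size of its SE.

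Between the lines Dhrs3 was lower in KO dense than in rescue dense cells (difference -1.62 ± 0.48), with no overlap of the groups and -1.53 within the shared slide. At sparse seeding the groups overlapped, at -0.83 ± 0.48. A second Dhrs3 probe gave -1.79 ± 0.68 and -0.67 ± 0.68 between the lines, and 3.10 and 4.23 for density in KO and rescue cells.

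Crabp2 encodes the binding protein that carries retinoic acid to its receptors in the nucleus. In KO cells it was well above background on 1 of 6 arrays, with -5.60, -6.71 and -6.53 in KO dense cells, the first of these being the measured one, and -5.58, -6.79 and -6.14 in KO sparse cells. In rescue dense cells it was well above background on all 3 arrays, at -2.98, -2.48 and -4.09, and in rescue sparse cells on none, at -6.99, -6.14 and -7.33. Crabp2 was thus at least 6.91-fold higher in rescue dense than in rescue sparse cells, by 4.0, 3.66 and 3.24 on the 3 days as measured. KO dense cells lay -3.10 ± 0.47 from rescue dense cells and -4.24 within the shared slide, with 2 of the 3 KO dense arrays below background. Of the 4 groups, rescue dense was the only one in which all arrays measured Crabp2.

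Crabp1 encodes a related binding protein, linked to the breakdown of retinoic acid in the cytosol. It was well above background on no KO array, on all 3 rescue dense arrays (-4.77, -4.46 and -4.75) and on 1 rescue sparse array (-6.14, -5.87 and -4.86, the last one measured). It was at least 2.35-fold lower in KO dense than in rescue dense cells, and the difference changed sign, to 0.10, with another background correction. Dense rescue cells were 0.96 ± 0.39 above sparse rescue cells, where a single sparse array measured it. The rescue dense arrays were the ones on which both Crabp genes were measured throughout.

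Stra6 encodes the membrane receptor that takes up retinol from its plasma carrier. Its levels were -0.59, -1.74 and -2.19 in KO dense cells and -0.67, -1.07 and -2.89 in KO sparse cells, against -0.57, -0.40 and -0.48 in rescue dense cells and -0.72, -1.39 and -1.99 in rescue sparse cells. The rescue dense arrays lay close together, with the highest KO dense array just below the lowest of them, while the other groups spread over 1 log2 unit or more and overlapped. The differences were -1.02 ± 0.55 and -0.17 ± 0.55 for KO minus rescue in dense and sparse cells, and 0.04 ± 0.55 and 0.89 ± 0.55 for dense minus sparse in KO and rescue cells, none as large as 2 SE. Within the shared slide KO minus rescue was -1.34 and 0.32.

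**Figure D2:**
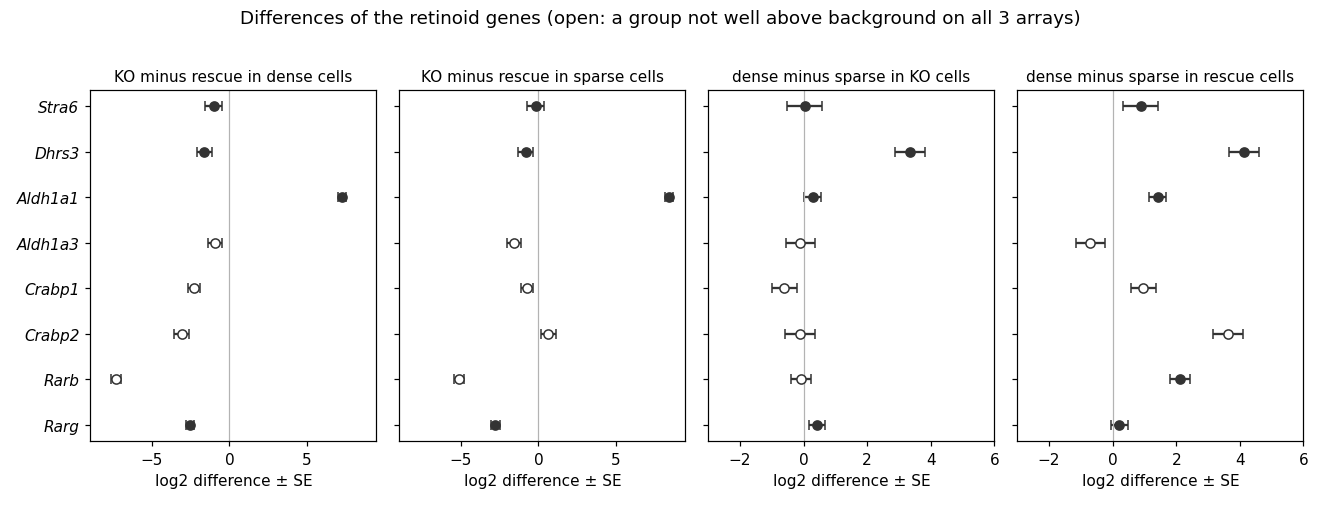
Log2 differences ± SE (horizontal axes) of 8 retinoid genes for KO minus rescue in dense and in sparse cells and for dense minus sparse in KO and in rescue cells, with open symbols where a group was not well above background on all 3 arrays. Aldh1a1 lies at 7.29 and 8.43 in the line differences, Rarb and Rarg lie below 0 there, and Dhrs3 has the largest density difference in KO cells (3.34) and in rescue cells (4.13).

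The following patterns stood side by side among the members. Rarb and Rarg were lower and Aldh1a1 higher in KO cells at both densities, on each of the 3 days. Dhrs3 followed density in both lines. Rarb and Crabp2 were higher in dense than in sparse rescue cells on each of the 3 days, with Crabp2 well above background on no rescue sparse array. In KO cells both genes lay at background on all but 1 array.

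**Figure D3:**
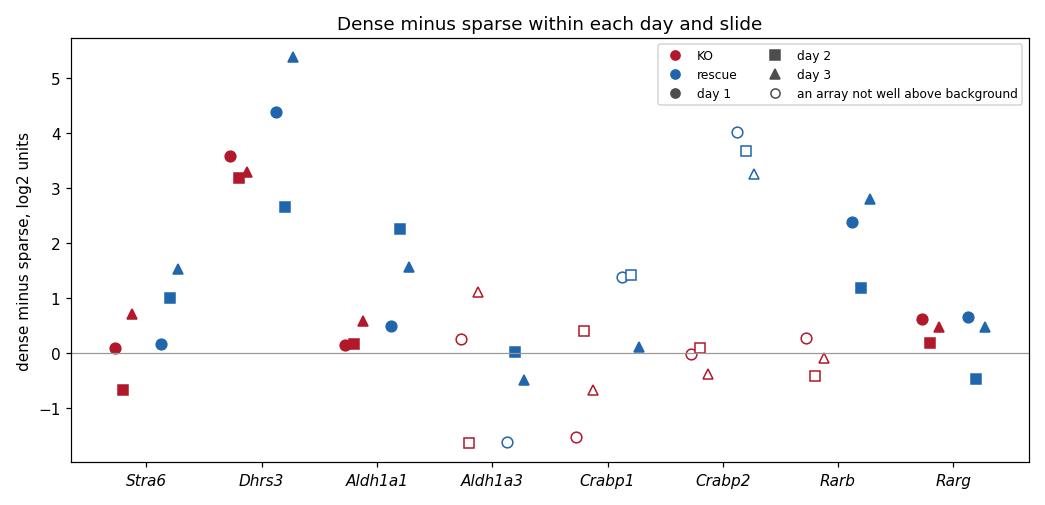
Dense minus sparse difference in log2 units (vertical axis) of 8 retinoid genes within each day and slide, KO in red and rescue in blue, shaped by day and open where either array was not well above background. Dhrs3 lies between 2.65 and 5.37 in all 6 pairs. Rarb and Crabp2 lie above 1 in the 3 rescue pairs and close to 0 in the KO pairs. No KO pair of either gene, and no rescue pair of Crabp2, was well above background on both arrays.

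The tested genes whose levels ran most like those of a member were found by the root mean square (RMS) difference of log2 levels over the 12 arrays, after each gene was centred on its own mean. For Rarb these were Gprin3 (RMS 0.28) and Kif16b (0.42), both also well above background only on the 6 rescue arrays. Rogdi (0.23) and Plxna2 (0.25) came nearest to Rarg. Nearest to Aldh1a1 were Sirpa (0.25), a receptor gene of the immunoglobulin family, and Mst1r (0.39), a receptor tyrosine kinase gene. Dhrs3 had less close neighbours, N4bp2l1 (0.60) and Idh1 (0.86). Crabp2 was nearest to Pdgfra (0.50), the PDGF receptor alpha gene, and Trim63 (0.52). Some of these neighbours were not measured throughout. Of the 12 arrays, Sirpa was well above background on 8, Mst1r on 9, N4bp2l1 on 6 and Trim63 on 3. For the members near background the likeness also includes arrays without a measured level. The nearest were Ldlrad4 and Insig2 (0.38 each) for Crabp1 and Itsn1 (0.38) and Nostrin (0.39) for Aldh1a3. Stra6 was nearest to Trim13 (0.43) and Pisd (0.45).

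The other genes of the pathway were taken from a list of 60 genes of retinol transport, oxidation, storage and breakdown, receptors and cofactors, and known responders, of which 57 were on the array and 41 passed the filter. These were tested with limma, adjusted over all 12435 genes. The list, like the members, was chosen with earlier results of these data known, so its counts and p-values are no independent test. In KO against rescue dense cells 8 list genes were higher, 13 were lower and 20 missed the threshold, against 61.6% called among all genes (31.9% higher and 29.7% lower), and the list's median difference was -0.19 against 0.08 for all genes. At sparse seeding 9 were higher, 12 were lower and 20 missed it, against 48.8% called among all genes (23.2% higher and 25.6% lower), with a median of -0.22 against 0.02. The 9 include Cyp26a1, for which no sparse array of either line was well above background. The share called in the list was 51.2% in both comparisons.

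Among retinol-handling genes, Rdh10, which oxidises retinol to retinaldehyde in the embryo, was lower in KO cells, with differences of -2.07 ± 0.28 in dense and -2.25 ± 0.28 in sparse cells (limma adjusted p = 4.88e-05 and 3.59e-05), and so was Rdh5, another retinol dehydrogenase gene, at -3.65 ± 0.29 and -2.80 ± 0.29 (4.34e-07 and 6.15e-06). Aldh1a7, a rodent paralogue of Aldh1a1, was higher by 4.43 ± 0.19 and 4.04 ± 0.19 (limma adjusted p = 2.15e-09 and 5.80e-09). Whether the Aldh1a1 and Aldh1a7 probes bind each other's transcript was not tested, since no probe sequence was at hand. Adh1, an alcohol dehydrogenase gene that acts on retinol, was measured in rescue dense cells alone, at least 2.51-fold lower in KO dense cells (limma adjusted p = 8.35e-07). Adh7 was lower in KO cells, with differences of -1.11 ± 0.26 in dense and -2.12 ± 0.26 in sparse cells (limma adjusted p = 0.00305 and 3.46e-05), and the dense call was lost with the slide as a fixed block (adjusted p = 0.057).

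The genes of retinoic acid breakdown were dim. Cyp26a1 was well above background on the 3 KO dense arrays only, at least 1.84-fold higher than in rescue dense cells (limma adjusted p = 0.00911), a call lost with quantile normalization and with normexp. In sparse cells both lines were below background. Cyp26b1 had levels of -3.52 and -3.34 on the 2 KO dense arrays with a usable spot, and -6.60, -1.88 and -6.91 in KO sparse cells, against -0.93, -0.42 and -2.19 in rescue dense and -2.17, -2.44 and -2.91 in rescue sparse cells. Its differences between the lines did not pass the test, at -2.25 ± 1.19 in dense and -2.63 ± 1.07 in sparse cells (limma adjusted p = 0.126 and 0.0639). With the slide as a fixed block the dense one turned to 2.21 and passed it (limma adjusted p = 0.0098). The KO dense array of the shared slide had no usable spot, and the only KO level there was the -1.88 of KO sparse cells.

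Of the remaining receptors, Rara was lower in KO cells, as its relatives Rarb and Rarg were. The difference was -1.23 ± 0.25 in dense cells (limma adjusted p = 0.000972), lost with spike-in scaling (-0.41) and with normexp, and at least 2.24-fold in sparse cells (limma adjusted p = 9.27e-05), where no KO array measured it and normexp turned the difference to 0.16. Rxra, the partner receptor gene, had close levels in all groups, between 1.75 and 2.75, and its differences between the lines were -0.01 ± 0.27 in dense and -0.11 ± 0.27 in sparse cells (limma adjusted p = 0.976 and 0.761). Rxrb was higher in KO sparse cells by 0.48 ± 0.18 (limma adjusted p = 0.0476), a call lost when any single array other than KO_dense 1 or KO_dense 3 was left out (adjusted p up to 0.134) and with the slide as a fixed block (0.43 ± 0.28, adjusted p = 0.278). Ncoa1, a receptor coactivator gene, was lower in KO cells, with differences of -3.21 ± 0.20 in dense and -2.72 ± 0.20 in sparse cells (limma adjusted p = 6.76e-08 and 3.79e-07).

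Known responders of the list went both ways. Hoxd4, a homeobox gene with a retinoic acid response element, was at least 244-fold higher in KO dense and at least 213-fold higher in KO sparse cells (limma adjusted p = 2.72e-09 and 4.59e-09), measured on all 6 KO arrays and on no rescue array. Rarres2, the chemerin gene, was higher by 6.52 ± 0.46 in dense and 4.21 ± 0.46 in sparse cells (limma adjusted p = 1.58e-07 and 1.01e-05), with 1 of 3 rescue dense and 2 of 3 rescue sparse arrays well above background. In the other direction Hoxb4 was lower in KO cells, with differences of -3.73 ± 0.21 and -3.09 ± 0.21 (limma adjusted p = 1.91e-08 and 1.35e-07), and so was Nr2f1, an orphan nuclear receptor gene, at -2.22 ± 0.54 in dense cells (limma adjusted p = 0.00354, lost with normexp) and at least 1.71-fold in sparse cells (limma adjusted p = 0.00101, turned to 0.11 with normexp). Gprc5a was 1.43 ± 0.31 higher in KO dense cells (limma adjusted p = 0.0018, lost with normexp).

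Between densities fewer list genes passed the test than between lines. In KO cells 7 were higher and 2 lower in dense than in sparse cultures and 32 did not pass the test, against 10.9% called among all genes (5.44% higher and 5.47% lower), with a median of 0.19 against -0.00 for all genes. In rescue cells 12 were higher, 4 were lower and 25 missed the threshold, against 40% called among all genes (19% higher and 21% lower), with a median of 0.32 against -0.08. The share called in the list was 22% in KO and 39.0% in rescue cells. Counts in KO cells moved with single arrays and with the scaling, so that the 9 called there ranged from 3 (without KO_sparse 1) to 10 when 1 array was left out, with 4 without KO_dense 2, and 48 genes in all were called with normexp against 1356.

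Tgm2, the tissue transglutaminase gene and a well known target of retinoic acid, was among the density genes of both lines. Its levels were 5.68, 6.17 and 5.71 in KO dense and 3.34, 4.21 and 3.69 in KO sparse cells, against 5.53, 5.35 and 5.34 in rescue dense and 3.69, 3.67 and 3.16 in rescue sparse cells. Dense minus sparse was 2.11 ± 0.24 in KO cells and 1.90 ± 0.24 in rescue cells (limma adjusted p = 0.00129 and 0.000112), with no overlap between densities. Of the members, Dhrs3 had this pattern as well. Ncoa2, a coactivator gene, was 1.09 ± 0.26 higher in dense rescue cells (limma adjusted p = 0.00566), and Aldh1a7 0.96 ± 0.19 higher in dense KO cells (limma adjusted p = 0.0104), both lost with normexp. Adh1 and Cd38, an ectoenzyme gene induced by retinoic acid in human myeloid cells, were measured in dense rescue cells and not in sparse ones, at least 2.66-fold and 1.97-fold higher (limma adjusted p = 1.09e-05 and 0.000198), as was the member Crabp2. Both calls were lost with normexp. A further test asked whether the density response itself differed between the lines (interaction term, KO response minus rescue response). There 4 list genes were above 0, 4 were below and 33 missed the threshold. The list's share called was 19.5%, against 20.7% among all genes (11.3% higher and 9.47% lower).

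**Figure D4:**
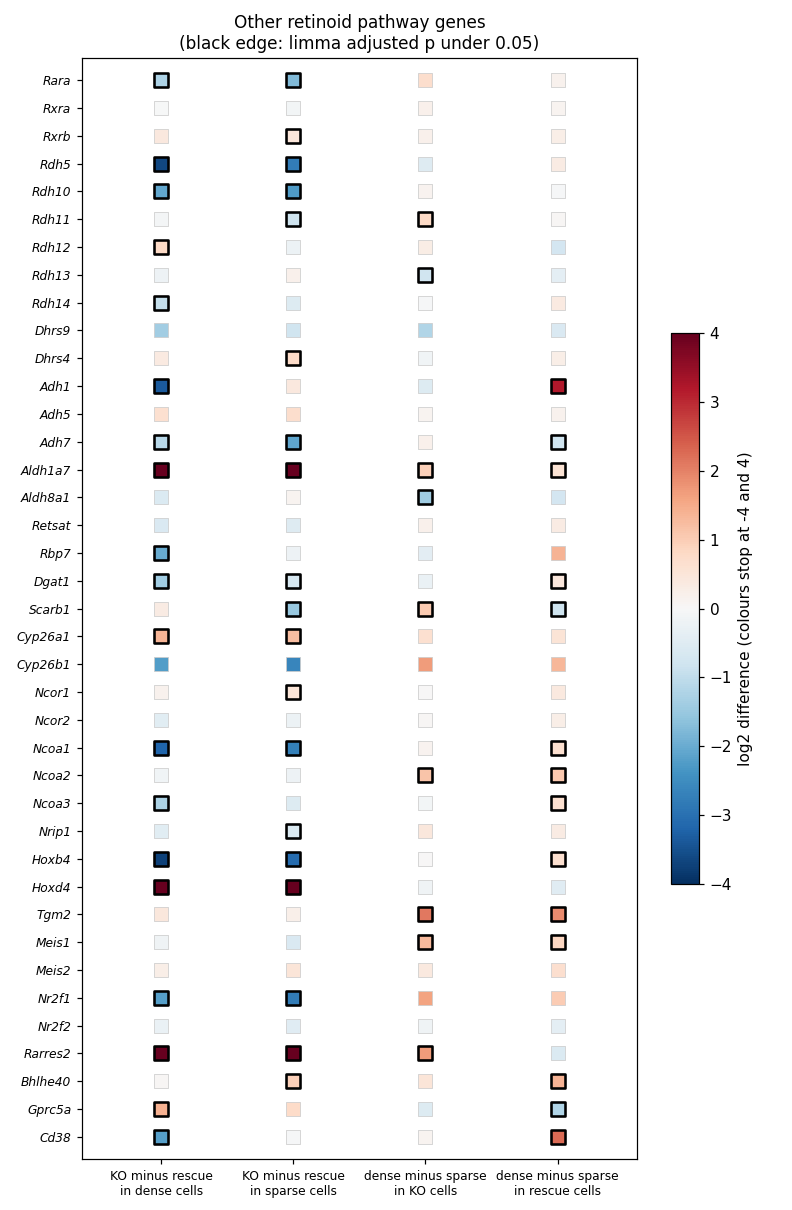
Log2 differences, as colour from -4 to 4, of 39 of the 41 other retinoid pathway genes that passed the filter (rows) in 4 comparisons (columns), with a black edge where the limma adjusted p was under 0.05. Aldh1a7, Hoxd4 and Rarres2 are red in both KO minus rescue columns, Rdh5, Rdh10, Ncoa1 and Hoxb4 are blue there, and Tgm2 is red in both density columns.

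Summed levels of mesothelial and epithelial markers differed between the lines at both densities. Those of leukocyte markers overlapped at both densities, and those of endothelial markers overlapped in dense cells. The 8 mesothelial markers on the array were all well above background on every KO array, with a summed level of 154 to 170 times the array's 75th percentile in KO dense and 186 to 215 in KO sparse cells, against 25.1 to 37.3 in rescue dense and 28 to 46 in rescue sparse cells. The highest of them in KO cells was Krt18, with a mean level of 6.27 in KO dense and 6.86 in KO sparse cells, against -3.46 in rescue dense and -1.67 in rescue sparse cells (log2). The list did not move as one. Wt1, Upk3b and Lrrn4 were on no rescue array well above background, while Msln ran the other way, with 3.20 in KO dense and 3.70 in KO sparse cells, against 4.86 in rescue dense and 5.01 in rescue sparse cells, and Krt8 had 1.92 in KO sparse and 2.00 in rescue sparse cells. The summed level of the 10 fibroblast markers was 407 to 435 in KO dense and 402 to 439 in KO sparse cells, against 1101 to 1987 in rescue dense and 1245 to 1429 in rescue sparse cells. This list did not move as one either. Col1a1, Col1a2, Col3a1, Vim, Pdgfrb and S100a4 were lower in KO cells at both densities. Dcn was higher, with 6.20 in KO dense and 6.01 in KO sparse cells, against 5.79 in rescue dense and 1.24 in rescue sparse cells. Fn1 and Pdgfra were higher in KO sparse and lower in KO dense cells. Of the 4 endothelial markers no more than 1 was measured on all arrays of any group, and their sum was 0.0664 to 0.0818 in KO dense and 0.0368 to 0.0845 in KO sparse cells, against 0.0623 to 0.246 in rescue dense and 0.0220 to 0.0300 in rescue sparse cells. The 3 leukocyte markers on the array summed to 0.289 to 0.367 in KO dense and 0.478 to 0.829 in KO sparse cells, against 0.219 to 0.332 in rescue dense and 0.510 to 0.759 in rescue sparse cells, with Ptprc on no array well above background. The 4 epithelial markers summed to 22.5 to 26.7 in KO dense and 8.65 to 14.0 in KO sparse cells. Their sum was 0.232 to 0.322 in rescue dense and 0.847 to 1.82 in rescue sparse cells. Krt14, higher in KO cells at both densities, had the highest mean of them in every group, and the others averaged -4.29 or lower (log2). Cdh1 ran the other way, with -6.52 in KO dense and -4.29 in rescue dense cells. It was well above background on no KO array, on 3 rescue dense arrays and on 1 rescue sparse array. Krt5 was close in sparse cells, at -4.49 in KO and -4.59 in rescue cells. The part of these differences in those of Aldh1a1, Rarb, Rarg and the other genes was not tested.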

How the data were processed

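The scanner files deposited by the authors hold spot intensity on a linear scale, background-subtracted and detrended within each array per the file headers (Agilent Feature Extraction 10.5.1.1; version 10 per the submitters' processing notes), with 100 ng of RNA per array per the labels. The deposited value table holds log2 values whose scaling is not given in the sources used here, and it was used as an alternative only. Outlier spots, 79 to 265 on an array, were left out, and none was saturated. Log2 processed signals of probes printed 10 times were averaged, and each array's 75th percentile was subtracted. Probes were named by their RefSeq transcript through the supplied gene table (GRCm38.p6), which named 24375 of 41174 probes. The kept probe with the highest mean stood for its gene, among 18154 kept probes with a gene.

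Genes were fitted with limma (version 3.58.1, R version 4.3.3, with data.table as reader, version 1.17.8) on all 12 arrays with 4 group means. The fit had 8 residual degrees of freedom and 3.58 from the prior, and p-values were adjusted by Benjamini and Hochberg's method over 12435 genes in each of 5 comparisons, with 0.05 as the threshold. The members and the list of other pathway genes were chosen with earlier results of these data known. Named list genes were Rara, Rxra, Rxrb, Rdh10, Cyp26a1, Cyp26b1 and Cyp26c1 whatever their values, and from each comparison's 4 largest called rises and 4 largest called falls. Of the tested list, 2 genes count in the totals and are not reported here. The test was checked on simulated data for KO minus rescue in sparse cells. It recovered 46% of 100 genes changed by 1 log2 unit and 85% of 100 changed by 2, with 6 false calls. In the data far more genes were called in that comparison (6067 of 12435), so these shares need not hold there. Fibroblast, mesothelial and other markers were fixed lists, and promoter sequences are RefSeq's.

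The replicate number is the experimental day in the labels. Deviations from the group means were correlated above 0.1 in 11 of 18 same-day pairs (range -0.04 to 0.30), so the day was kept as an alternative block. Alternatives were quantile, median and spike-in scaling, normexp with an offset of 50 (on the median spot signal, since the files give no mean signal), other filters and probe rules, the day or slide as a block, single arrays left out, and the deposited table as labelled, with its day 3 columns reassigned, and without them.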

Additional observations from a re-analysis of the deposited data

Results flagged for a closer look

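The density response differed between the lines in 8 of the 41 tested pathway genes (19.5%), close to the 20.7% called among all genes. The calls are of the interaction term (KO response minus rescue response, limma adjusted p under 0.05). With 4 higher and 4 lower, the list median was -0.05 against 0.04 for all genes. Of these 8 genes, 6 are given here. Adh1 had -3.77 ± 0.40 (limma adjusted p = 0.000162), and was measured in rescue dense cells alone. Cd38 had -2.16 ± 0.45 (limma adjusted p = 0.00648), and was likewise measured in rescue dense cells alone. Scarb1, a lipoprotein receptor gene that also takes up carotenoids, had 1.86 ± 0.24 (limma adjusted p = 0.000422), with levels of 1.99, 1.67 and 1.93 in KO dense and 0.72, 0.97 and 0.80 in KO sparse cells, against 1.7, 1.52 and 1.38 in rescue dense and 2.53, 2.32 and 2.23 in rescue sparse cells. Rarres2 had 2.31 ± 0.64 (limma adjusted p = 0.0261), lost without KO_sparse 1, KO_dense 1, KO_dense 2, rescue_sparse 3 or rescue_dense 3 (adjusted p up to 0.0600). Rdh11, a retinol dehydrogenase gene, had 0.74 ± 0.23 (limma adjusted p = 0.0408), lost when any single array other than KO_sparse 2 or KO_dense 3 was left out (adjusted p up to 0.0930). Dgat1, an acyltransferase gene that can esterify retinol, had -0.71 ± 0.23 (limma adjusted p = 0.0493), lost when any single array other than KO_sparse 3 was left out (adjusted p up to 0.118). With normexp the calls of Adh1, Cd38, Rarres2, Rdh11 and Dgat1 were lost, and that of Scarb1 was not. With the slide as a fixed block those of Rarres2, Rdh11 and Dgat1 were lost (adjusted p = 0.0539, 0.0676 and 0.0735). Spike-in scaling turned the interaction to 0.20 for Cd38 and to 1.66 for Dgat1.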

How the results depend on the processing

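No probe sequence or position was at hand, all p-values rest on 3 cultures a group, and line and slide differ together on 2 of the 3 days. Normexp, chosen on the median signal after the files were seen, lowered the numbers of genes called in all comparisons: to 5028 (13 in the list) for KO minus rescue in dense cells, 3355 (12) in sparse cells, 48 (1) for density in KO, 2321 (4) in rescue cells and 567 (3) for the interaction. It turned KO minus rescue in sparse cells to 0.46 for Aldh1a3, 0.16 for Rara and 0.11 for Nr2f1, and in dense cells to 0.10 for Crabp1. These genes lay near background, and the cause was not tested. Of 57 calls of named list genes, normexp lost 33, spike-in scaling 8 and the slide as a fixed block 10, while 40 held whichever single array was left out. With the slide as a fixed block Cyp26b1 turned to 2.21 (KO minus rescue, dense, limma adjusted p = 0.0098). The KO dense array of the shared slide had no usable spot there, so the value rests on that slide's other arrays and on the density difference of KO cells on other slides.

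Spike-in scaling moved the median of all genes by 0.82 for KO minus rescue in dense cells, -1.55 in sparse cells, 3.09 for density in KO, 0.73 in rescue cells and 2.37 for the interaction. It called 9448 genes (35 in the list) for KO minus rescue in sparse cells, 12379 (41) for density in KO and 10792 (36) for the interaction. The share of calls that were higher ran from 6.14% to 99.98% with it, against 47.5% to 54.4% with the 75th percentile. With spike-in scaling KO minus rescue in sparse cells turned to -1.07 for Rxrb, -0.30 for Cyp26a1, -1.13 for Adh1, -1.31 for Tgm2, -1.43 for Aldh8a1 and -1.33 for Rdh13. Density in KO cells turned to 2.93 for Hoxd4, 2.54 for Adh1, 2.84 for Dgat1, 2.57 for Rdh5, 2.55 for Gprc5a, 1.66 for Aldh8a1 and 2.30 for Rdh13. The interaction turned to 0.16 for Rarb, 2.32 for Rxrb, 0.20 for Cd38, 1.66 for Dgat1, 1.73 for Hoxb4, 1.52 for Rdh5, 1.87 for Ncoa1, 1.67 for Aldh8a1 and 1.96 for Rdh13. Median scaling moved the share of higher calls to 30.6% for KO minus rescue in sparse cells, 80.9% for density in KO and 70.9% for the interaction, quantile normalization to 63.2% and normexp to 33.3% for density in KO.

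The deposited table as labelled, whose day 3 columns lie with the other line, called 0 genes (0 in the list) in both line comparisons, in density of rescue cells and in the interaction, and 1 (0) in density of KO cells. At an unadjusted limma p under 0.05 it had 61 genes for KO minus rescue in dense cells, 83 in sparse cells, 955 for density in KO, 903 in rescue cells and 32 for the interaction. It turned Cyp26a1 to -0.057 in sparse cells, Cd38 to 0.016 and Gprc5a to -0.02 in dense cells, and the interaction of Cd38 to 0.24. With those columns reassigned, an alternative chosen after seeing the data, 9 of 10 counts stayed within 1.5 times and the list's interaction count was 5. Without them, also chosen after seeing the data, density in KO called 775 (5), density in rescue cells 9 of the list, and the interaction 1402 (3). With only the probes well above background on all arrays, the list's interaction count was 5. Leaving out 1 array gave 514 to 1598 genes (3 to 10 in the list) for density in KO cells, with 514 without KO_dense 2, 601 without KO_sparse 1, 671 without KO_sparse 3 and 879 without KO_dense 1. It gave 10 to 17 list genes for density in rescue cells and 5 to 9 for the interaction. With the experimental day as a replicate block all 10 counts stayed within 1.5 times, and Rxrb in sparse cells (0.48, adjusted p = 0.0532) and Meis1 in rescue density (0.84, adjusted p = 0.0529) lost their calls. Of 1006 alternative values of the members, 913 moved by less than the spread between arrays, 90 by more, and 3 were counted as turned. Of the 913, 480 came from leaving out 1 array. More values than these 3 changed sign. Spike-in scaling shifted the interaction by 2.37, more than the size of the main values of Crabp1 (-1.57), Aldh1a1 (-1.14), Stra6 (-0.85) and Dhrs3 (-0.79). With that scaling 9 member values moved by less than the spread, 30 by more, and 1 was counted as turned.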

Other observations

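The pathway genes of the list that were on the array but failed the filter were 16: Rxrg, Rdh1, Sdr16c5, Rbp2, Rbp4, Ttr, Stra6l, Lrat, Rpe65, Bco1, Bco2, Ppard, Hoxb1, Cdx1, Stra8 and Ret. Lrat, the main retinol-esterifying enzyme, Rpe65 of the visual cycle, Rxrg, Rdh1, Sdr16c5, Ttr, Bco1, Hoxb1, Cdx1, Stra8 and Ret were well above background on no array. Ppard, a nuclear receptor gene, was well above background on 1 KO dense, 2 KO sparse, 2 rescue dense and 2 rescue sparse arrays. Rbp4, the plasma retinol carrier, was so on 1 KO sparse array only.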
